A study of Mus musculus with 6 samples.

Results

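The actin, myosin and SRF-linked cytoskeleton genes described here are 45 mouse genes taken by symbol from the 54838 genes of a bulk RNA sequencing table. All 45 were found and had a count in at least 1 library, and 36 of them passed a filter on low counts and were tested among 13629 genes. The cells were B16F10, a metastatic mouse melanoma line, as control cultures (3 libraries) or cultures given fenofibrate at 50 µM (3 libraries). Fenofibrate is a lipid-lowering drug that is converted to an acid which activates the nuclear receptor PPARα. No genetic change was named for either group, and both had RNA enriched for mRNA. The exposure time and what the control cells received are not given in the sources used here. The design text calls the libraries biological triplicates, while the cell line field names a different line for each library, from B16F10 to B16F15. Samples were grouped by title. If that field is meant as written, line and treatment cannot be told apart.

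Serum response factor (SRF) is a transcription factor that binds a short DNA sequence, the CArG box, in promoters of cytoskeletal and muscle genes. Its cofactors of the MRTF family bind unpolymerised actin, which holds them in the cytoplasm, and they enter the nucleus when actin is built into filaments. Many of their target genes encode actin itself, the motor myosin II and the proteins that bind, cross-link, sever or recycle filaments, so the filament system and its own transcription are coupled. In melanoma cells this system carries shape, contraction and movement.

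The libraries held 13540038 to 14710856 counts, so a count of 0 in 1 library allows up to 0.204 to 0.222 CPM, the count scaled to a common library total, a limit that covers counting error only. Melanocyte markers fitted the labelled cell type, with summed levels of 25700 to 26700 CPM in control and 31600 to 33700 CPM in fenofibrate. Levels below are CPM scaled by TMM (normalised CPM). They are given in the order of replicates 1, 2 and 3, and means are given ± SD over 3 libraries. Fold changes, standard errors (SE), 95% intervals and adjusted p-values come from edgeR's quasi-likelihood test, with Benjamini-Hochberg adjustment over all genes tested, and a gene was called at an adjusted p under 0.05. In bulk RNA, a change in the share of a cell type and a change in RNA per cell cannot be told apart.

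Promoter windows from RefSeq (GRCm38.p6), 250 bases before to 50 bases after a gene's start, were found for 41 of the 45 members, Mkl1 and Mkl2 through their newer names Mrtfa and Mrtfb. Actb, Tagln, Diaph1 and Csrp2 had none in the table used. The CArG box was searched as CC, then 6 bases that are each A or T, then GG, which reads the same way on both strands. It was found in 8 members (Srf, Actg1, Cnn2, Myl6, Myl9, Filip1l, Fhl1 and Fhl2), in 9 of the 59 windows of the 41 members. Of all 27025 genes with a window, 488 (1.81%) held one, and of all 32851 windows, 535 (1.63%) did. A match describes the letters of the promoter and does not show that SRF binds there. The windows of the 6 members with a box that were also tested are shown because they place the box beside the expression values below. Capitals mark the CArG boxes, and each sequence is read 5′ to 3′ along the gene's strand.
Srf, chr17:46556113-46556412 (minus strand): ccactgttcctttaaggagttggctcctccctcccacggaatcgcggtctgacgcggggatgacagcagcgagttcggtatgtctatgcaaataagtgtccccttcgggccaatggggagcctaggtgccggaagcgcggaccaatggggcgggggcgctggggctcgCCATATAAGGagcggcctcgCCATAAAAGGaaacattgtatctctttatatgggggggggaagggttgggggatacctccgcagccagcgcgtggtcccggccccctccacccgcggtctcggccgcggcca
Actg1, chr11:120348446-120348745 (minus strand): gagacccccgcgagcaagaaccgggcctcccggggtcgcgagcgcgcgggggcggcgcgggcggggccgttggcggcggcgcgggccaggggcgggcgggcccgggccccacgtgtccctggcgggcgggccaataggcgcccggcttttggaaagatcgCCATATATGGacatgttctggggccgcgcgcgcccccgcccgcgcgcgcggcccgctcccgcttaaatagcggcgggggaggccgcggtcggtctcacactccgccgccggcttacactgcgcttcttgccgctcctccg
Cnn2, chr10:79988350-79988649 (plus strand): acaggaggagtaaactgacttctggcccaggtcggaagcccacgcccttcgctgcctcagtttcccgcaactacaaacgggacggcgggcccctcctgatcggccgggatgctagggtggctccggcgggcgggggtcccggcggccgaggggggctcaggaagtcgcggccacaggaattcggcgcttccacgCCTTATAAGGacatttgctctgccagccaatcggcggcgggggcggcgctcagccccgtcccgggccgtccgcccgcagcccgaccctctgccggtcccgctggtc
Myl9, chr2:156775214-156775513 (plus strand): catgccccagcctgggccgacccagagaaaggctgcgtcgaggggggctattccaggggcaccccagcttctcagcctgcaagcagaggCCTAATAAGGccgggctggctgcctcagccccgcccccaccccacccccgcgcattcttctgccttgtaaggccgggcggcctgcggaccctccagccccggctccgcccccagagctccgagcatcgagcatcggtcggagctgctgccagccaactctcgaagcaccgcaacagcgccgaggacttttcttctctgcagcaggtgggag
Myl6, chr10:128492960-128493259 (minus strand): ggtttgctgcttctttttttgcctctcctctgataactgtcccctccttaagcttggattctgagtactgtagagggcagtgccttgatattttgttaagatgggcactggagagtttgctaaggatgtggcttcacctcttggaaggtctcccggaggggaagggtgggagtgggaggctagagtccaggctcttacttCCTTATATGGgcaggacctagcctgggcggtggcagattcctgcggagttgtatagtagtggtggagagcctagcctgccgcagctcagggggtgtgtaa
Filip1l, chr16:57548992-57549291 (plus strand): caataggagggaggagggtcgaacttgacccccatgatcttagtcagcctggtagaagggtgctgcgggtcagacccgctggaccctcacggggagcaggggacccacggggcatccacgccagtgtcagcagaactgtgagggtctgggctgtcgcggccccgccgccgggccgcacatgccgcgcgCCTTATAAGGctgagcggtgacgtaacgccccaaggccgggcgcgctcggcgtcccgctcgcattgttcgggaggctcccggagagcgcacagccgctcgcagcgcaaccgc

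Srf, the gene of the factor itself, held 2 boxes, which began 82 and 62 bases before the start. The boxes of Cnn2 and Filip1l had the same 10 letters. In the other windows shown, the box began 50 bases before the start for Myl6, 56 for Cnn2, 62 for Filip1l, 90 for Actg1 and 161 for Myl9. The windows of Filip1l and Myl6 lie inside the annotated genes (chr16:57353093-57573126 and chr10:128490860-128494145), so their start is not the gene's outermost one. Fhl1 (102 bases) and Fhl2 (31 and 96 bases, at 2 starts) had too few counts to be tested. Of the 6 tested members with a box, 5 were called higher with fenofibrate and none lower, and their median log2 fold change was 0.76. Without Myl9, which passed the filter on low counts mainly through the fenofibrate libraries, 4 of 5 were called higher, with a median of 0.71. Of the 27 tested members with a window and no box, 13 were called higher and 3 lower, with a median of 0.12. Of all coding genes tested with a window, 20.9% were called higher and 21.1% lower. The members' shares called higher lay above that both with a box (83.3%) and without (48.1%). These counts are a description with no test, and no match says only that these letters are not in this window.

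**Figure D1:**
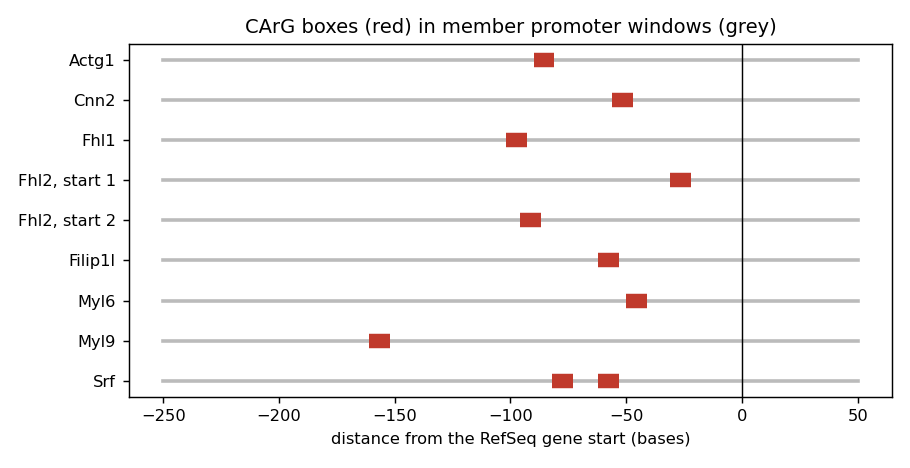
Positions of the CArG boxes (red) in those promoter windows of 8 members that hold one (grey lines, at 2 starts for Fhl2). The horizontal axis is the distance in bases from the RefSeq start of the window. All boxes lie before the start, between 31 and 161 bases from it, and Srf holds 2.

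With fenofibrate, 19 of the 36 tested members rose and 3 fell, while 14 did not pass the test. Over all genes tested, 39.1% were called, 19.5% higher and 19.5% lower, against 61.1%, 52.8% and 8.33% of the tested members. The rises reached the transcription factor Srf, all 4 tested genes of myosin II and its kinase, both gelsolin-family genes, 3 of 5 LIM-domain genes and 4 of 10 genes of filament turnover. The 3 falls were small and fell on Tpm3, Pfn1 and Limk1. The median log2 fold change of the tested members was 0.31 (1.24-fold), and that of all genes tested was 0.00. A rise of at least 1.5-fold was called for 13 members, against 7.18% of all genes. All fenofibrate libraries lay above all control libraries for 21 members (26.4% of all genes) and below them for 3 (26.9%), so the groups did not overlap for 24 of 36, against 53.3% of all genes. Myl9 passed the filter mainly through the fenofibrate libraries, all 3 of which reached its level against 1 control library, and without Myl9 18 of 35 were called higher and 3 lower.

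**Figure D2:**
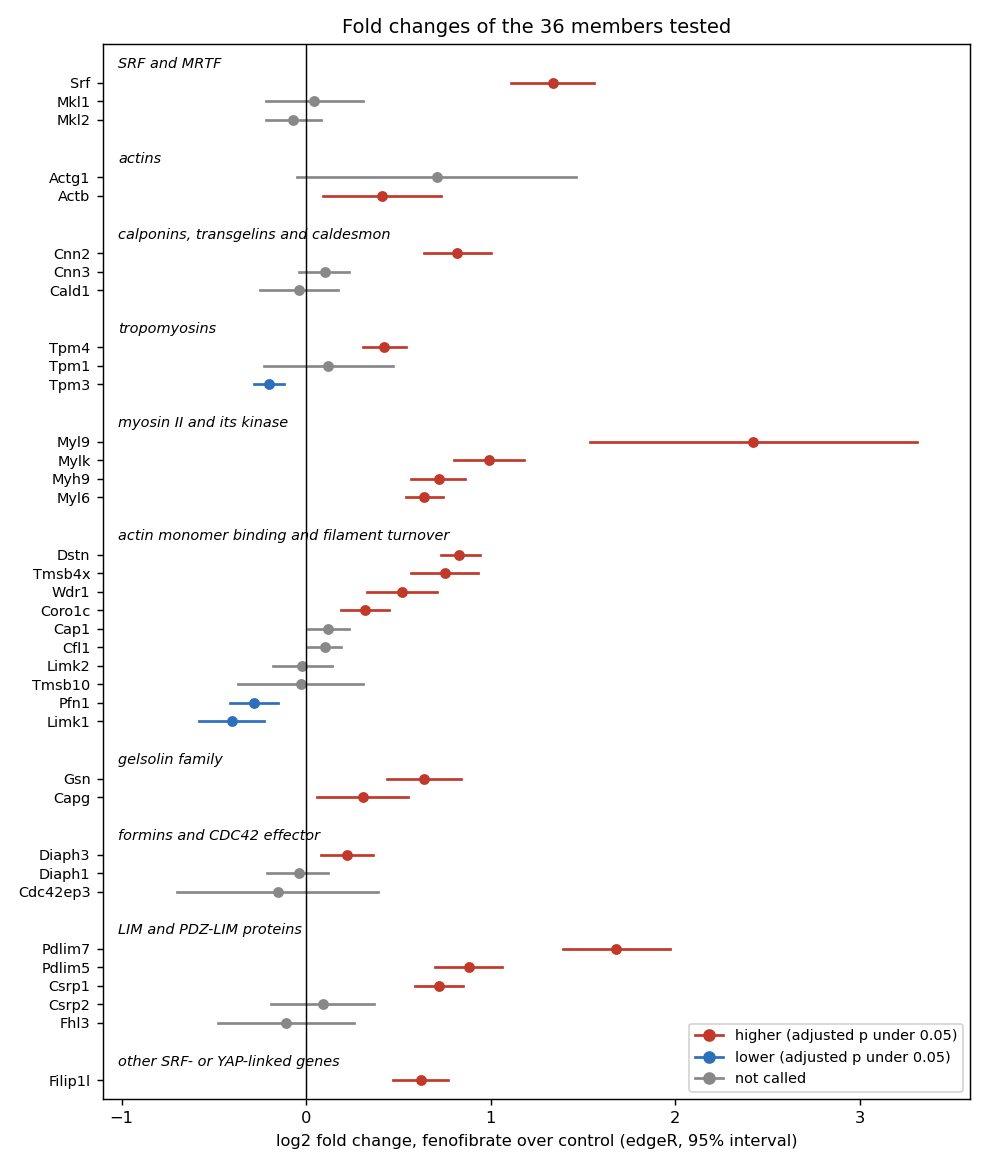
Log2 fold changes (fenofibrate over control, horizontal axis) of the 36 tested members, ordered by role, with 95% intervals as lines and the edgeR call as colour. Myl9, Pdlim7 and Srf lie farthest to the right, and the 3 members called lower lie between -0.40 and -0.20.

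**Figure D3:**
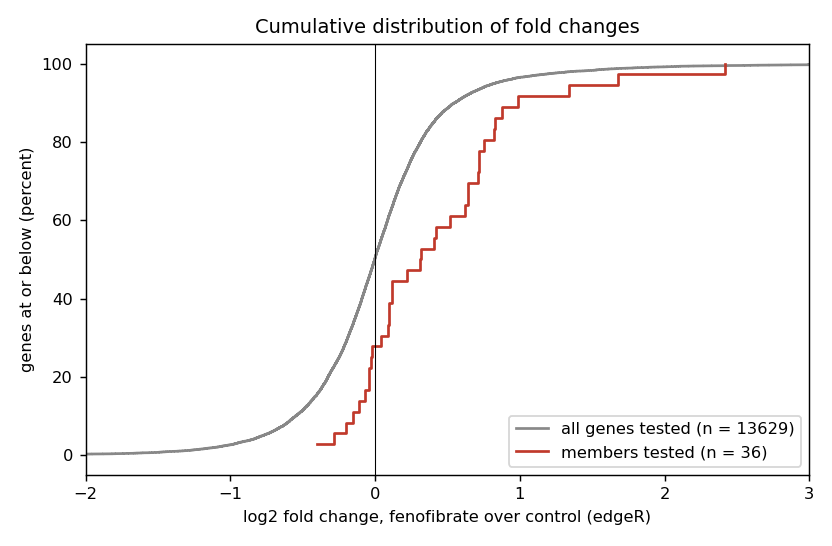
Cumulative share of genes (percent, vertical axis) at or below each log2 fold change (horizontal axis) for the 36 tested members and for all 13629 genes tested. The members' line lies to the right over most of the range, with a median of 0.31 against 0.00.

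Among SRF and its cofactors, the factor's own mRNA rose and those of the MRTFs did not pass the test. Srf (chr17:46548329-46556175, minus strand) stood at 50.5, 50.6 and 50.4 normalised CPM in control and at 141, 133 and 108 with fenofibrate. The control libraries were nearly equal, and every fenofibrate library lay far above them. The log2 fold change was 1.34 ± 0.10 (SE), or 2.52-fold with an interval of 2.16 to 2.94, at an adjusted p of 6.75e-05, and it ranked 287th among rises of all genes tested. Mkl1, which encodes MRTF-A, was at 26.1, 30.5 and 24.4 in control and 30.8, 27.7 and 25.1 with fenofibrate, with overlapping groups. Its log2 fold change was 0.04, with an interval from -0.22 to 0.31 (adjusted p = 0.786). Mkl2, which encodes MRTF-B, was at 55.3, 54.0 and 53.4 against 55.0, 48.1 and 51.8, a log2 change of -0.07 (-0.22 to 0.08, adjusted p = 0.414). The activity of these cofactors is set largely by where they are in the cell, which mRNA does not measure.

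The cytoplasmic actins, the building blocks of filaments in nearly all cells, varied widely between replicates of a group, Actg1 in both groups and Actb in control. Actb (beta-actin) was at 1032, 1349 and 1582 normalised CPM in control and 1832, 1826 and 1613 with fenofibrate. The groups did not overlap, but control replicate 3 lay close to fenofibrate replicate 3. Actb was called higher, by 0.41 ± 0.14 on the log2 scale (1.33-fold, adjusted p = 0.0492). This call was lost in 11 of 13 alternative fits, among them those without control replicate 1 (0.26, adjusted p = 0.0576), control replicate 2 (0.42, 0.101) or any of the fenofibrate replicates 1, 2 and 3 (adjusted p = 0.126, 0.116 and 0.0598). Actg1 (gamma-actin) was at 476, 319 and 707 in control and 642, 640 and 1171 with fenofibrate, so that control replicate 3 lay above 2 fenofibrate libraries. Its log2 change of 0.71 ± 0.32 did not pass the test (-0.05 to 1.46, adjusted p = 0.124). It was 1.04 (adjusted p = 0.0445) without control replicate 3, 0.46 (0.284) without control replicate 2 and 0.35 (0.377) without fenofibrate replicate 3.

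Because the proteins and coding sequences of Actb and Actg1 are closely alike, reads may be divided between them in ways the counting rule decides, and their split is uncertain. Their counts were therefore also summed, a choice made after the data were seen. The sum was at 1509, 1668 and 2289 normalised CPM in control and 2473, 2465 and 2784 with fenofibrate, which do not overlap. The summed log2 change was 0.50 ± 0.14 (0.17 to 0.83, adjusted p = 0.0268). The gamma-actin pseudogene Actg-ps1, a further near-copy, had 42, 49 and 27 counts in control and 74, 55 and 66 with fenofibrate. Acta2, the actin of smooth muscle and a classic SRF target, had no count in any control library and 10, 1 and 10 counts with fenofibrate. Set against 3 counts over the control group, its summed fenofibrate level of only 0.493 CPM was 6.78-fold higher. That ratio takes the fenofibrate counts as exact and leaves out their spread, so it is not a lower limit on the change.

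Among calponins, transgelins and caldesmon, proteins that sit along actin filaments, only Cnn2 was called among the 3 tested. Cnn2 (calponin 2), whose promoter holds a box, was at 129, 129 and 133 normalised CPM in control and 256, 230 and 204 with fenofibrate. Every treated library was far above the narrow control range, and the log2 change was 0.82 ± 0.08 (1.76-fold, adjusted p = 0.00022). Cnn3, the acidic calponin, was at 219, 219 and 218 against 212, 245 and 244. Its log2 change was 0.10 (-0.04 to 0.23, adjusted p = 0.231), and without fenofibrate replicate 1, the lowest library, it was 0.16 with an adjusted p of 0.02. Cald1, the filament-binding regulator caldesmon, was at 359, 359 and 391 against 309, 369 and 400.0, a log2 change of -0.04 (-0.25 to 0.17, adjusted p = 0.747).

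The smooth muscle members of this group were near the limit of detection. Cnn1 had 0 counts in control and 1 with fenofibrate. Tagln (SM22, a standard SRF reporter gene) had 6, 1 and 0 counts in control and 12, 7 and 12 with fenofibrate. The ratio of its summed levels was 4.29, with an exact counting interval of 1.85 to 11.5 that leaves out the spread between cultures. Exons of Tagln overlap Pcsk7 and Gm48529 on the other strand. Without strand, reads of those genes cannot be told apart from the few counts of Tagln. Tagln2, its widely expressed relative, had 4, 8 and 9 against 5, 5 and 15 counts, a ratio of 1.15 (0.619 to 2.17).

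Tropomyosins, coiled-coil dimers that run along filaments and decide which proteins can bind them, moved in different directions. Tpm4 rose from 347, 338 and 337 normalised CPM to 484, 459 and 428, a log2 change of 0.42 ± 0.05 (1.34-fold, adjusted p = 0.000543). Tpm3 fell from 365, 373 and 357 to 324, 313 and 315, a log2 change of -0.20 ± 0.04 (1.15-fold lower, adjusted p = 0.00344). Both changes were small and both had groups that did not overlap, with SDs of 5.82 and 7.91 normalised CPM in control and 28.1 and 5.95 with fenofibrate. Tpm1 was at 532, 521 and 793 in control and 692, 668 and 644 with fenofibrate, a log2 change of 0.12 ± 0.15 (adjusted p = 0.563). Its control replicate 3 stood above all other libraries, and without it the change was 0.34 with an adjusted p of 0.002. Tpm2, a muscle-rich form, had 11 counts over control and 17 over fenofibrate and was not tested.

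All 4 tested genes of non-muscle myosin II and its activating kinase rose, with a median log2 fold change of 0.86. Without Myl9, whose control libraries were mostly under the filter on low counts, 3 of 3 rose, with a median of 0.72. Myosin II is the motor that pulls actin filaments past each other, and it consists of heavy chains, essential light chains and regulatory light chains. Myh9, the heavy chain of myosin IIA, went from 704, 658 and 675 normalised CPM to 1221, 1097 and 1033. These groups lie far apart, and the log2 change was 0.72 ± 0.06 (1.65-fold, adjusted p = 0.000161). Myl6, the essential light chain, went from 157, 149 and 151 to 245, 238 and 228, at 0.64 ± 0.04 (1.56-fold, adjusted p = 5.33e-05). Its spread was small in both groups, with SDs of 4.12 and 8.24.

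Mylk, the kinase that phosphorylates the regulatory light chain and so switches the motor on, went from 81.3, 88.4 and 86.0 to 189, 168 and 152 normalised CPM. Its log2 change was 0.99 ± 0.08 (1.99-fold, adjusted p = 0.000128). Exons of Mylk overlap 2 annotated genes on the other strand, E130310I04Rik and Gm21691, whose reads cannot be told apart without strand. Myl9, a regulatory light chain typical of smooth muscle, had 7, 4 and 10 counts in control and 49, 32 and 32 with fenofibrate. In normalised CPM this was 0.504, 0.279 and 0.725 against 3.70, 2.27 and 2.22, the largest rise among the tested members at a log2 change of 2.42 ± 0.38 (1.54 to 3.31, adjusted p = 0.00216). The size rests on few counts, and on the log2(FPKM + 0.5) scale, which understates changes of low genes, it was 1.24. Myh10, the heavy chain of myosin IIB, had 4 counts over control and 1 over fenofibrate, so nearly all reads of these 2 heavy chain genes came from Myh9.

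**Figure D4:**
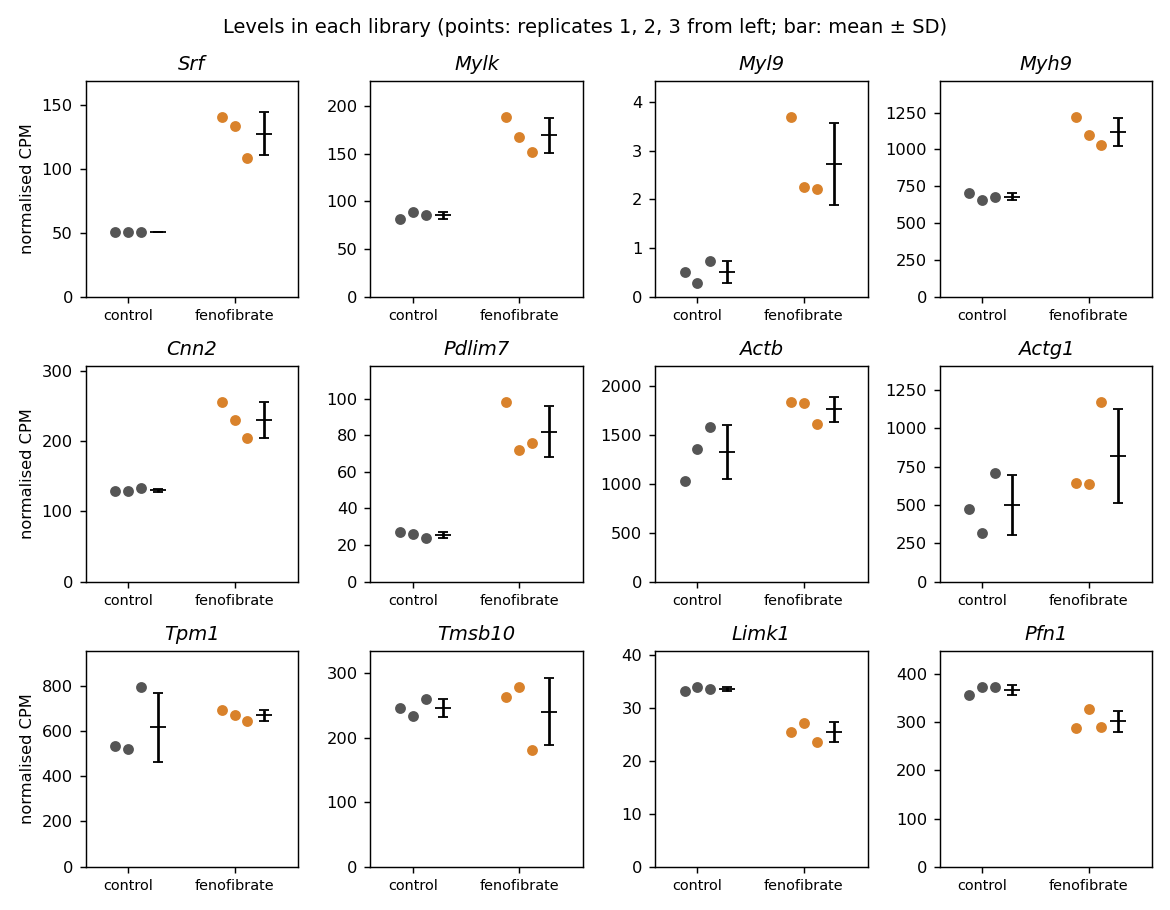
Normalised CPM (vertical axes, from 0) in each of the 3 control and 3 fenofibrate libraries for 12 members; points are replicates 1, 2 and 3 from left, and bars are mean ± SD. The groups stand apart for Srf, Mylk, Myl9, Myh9, Cnn2, Pdlim7, Limk1 and Pfn1, while Actg1, Tpm1 and Tmsb10 overlap.

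Of 10 genes for actin monomer binding and filament turnover, 4 (40%) were called higher, 2 (20%) lower and 4 were not called. Of all genes tested, 19.5% were called higher and 19.5% lower, so the share called lower here was near that of all genes. Of the paired severing factors, which cut old filaments, destrin rose and cofilin did not pass the test. Dstn went from 182, 165 and 173 to 319, 302 and 307 normalised CPM, a log2 change of 0.83 ± 0.05 (1.78-fold, adjusted p = 2.53e-05). Cfl1 was at 766, 796 and 835 against 843, 869 and 853, which do not overlap but differ by only 0.10 ± 0.04 (adjusted p = 0.0864). Without control replicate 3 the change of Cfl1 was 0.13 and passed the test (adjusted p = 0.0354). Wdr1 (AIP1), which speeds cofilin-driven disassembly, went from 320, 305 and 262 to 454, 421 and 395, at 0.52 ± 0.08 (1.43-fold, adjusted p = 0.00211). Coro1c, a coronin, went from 82.1, 90.7 and 91.2 to 112, 110 and 107, at 0.32 ± 0.06 (1.25-fold, adjusted p = 0.00345). Cap1, which recycles actin monomers, was at 158, 153 and 160 against 179, 164 and 169, at 0.12 ± 0.05 (adjusted p = 0.0848).

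The LIM kinases inactivate cofilin and destrin by phosphorylation. Limk1 fell from 33.2, 33.9 and 33.5 to 25.4, 27.2 and 23.5 normalised CPM, a log2 change of -0.40 ± 0.08 (1.32-fold lower, adjusted p = 0.0047). Limk2 was at 43.7, 41.7 and 42.5 against 45.2, 39.5 and 41.2, with a log2 change of -0.02 (adjusted p = 0.81). Among the proteins that hold actin monomers, profilin 1 (Pfn1), which delivers them to growing ends, fell from 356, 373 and 373 to 289, 328 and 291. Its log2 change was -0.28 ± 0.06 (1.21-fold lower, adjusted p = 0.00603), with groups that did not overlap. The sequestering peptide thymosin beta 4 (Tmsb4x) rose from 15.6, 17.3 and 17.0 to 28.4, 26.9 and 28.8, at 0.75 ± 0.08 (1.68-fold, adjusted p = 0.000319). Tmsb10, its relative, was at 246, 233 and 260 against 263, 278 and 181. The low fenofibrate replicate 3 took the change of Tmsb10 to -0.03 ± 0.15 (adjusted p = 0.878), and without that library it was 0.14 (adjusted p = 0.112).

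Both gelsolin-family genes, whose proteins cap filament ends, were called higher. Gsn, which also severs, went from 72.3, 61.4 and 72.8 to 115, 108 and 98.9 normalised CPM, at 0.64 ± 0.09 (1.56-fold, adjusted p = 0.00102). Capg, which caps without severing, went from 30.2, 25.8 and 34.2 to 38.4, 36.7 and 36.5, at 0.31 ± 0.10 (1.24-fold, adjusted p = 0.0498). The call of Capg was lost in 10 of 13 alternative fits. Those without control replicate 1, control replicate 2 or fenofibrate replicates 1, 2 and 3 were among them (adjusted p = 0.112, 0.115, 0.123, 0.0941 and 0.0875).

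The formins lengthen unbranched filaments. Diaph3 rose from 57.8, 57.5 and 53.3 to 64.6, 64.0 and 67.8 normalised CPM, at 0.22 ± 0.06 (1.16-fold, adjusted p = 0.02). That call was lost in 6 of 13 alternative fits, among them without control replicate 3 (0.18, adjusted p = 0.0593) or fenofibrate replicate 3 (0.19, adjusted p = 0.0597). Diaph1 was at 67.2, 61.2 and 57.4 against 62.7, 59.3 and 58.7, with a log2 change of -0.04 ± 0.07 (adjusted p = 0.684). Cdc42ep3, an effector of the GTPase CDC42, had 37, 49 and 44 counts against 40, 28 and 48, at -0.15 ± 0.23 (adjusted p = 0.634).

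Among LIM and PDZ-LIM proteins, adaptors that sit on stress fibres and adhesions, 3 of 5 tested genes rose, each by over 1.5-fold. Pdlim7 (enigma), at chr13:55495795-55513676 on the minus strand, went from 27.1, 25.9 and 23.9 to 98.1, 72.1 and 75.7 normalised CPM. This was the second largest rise among tested members, at a log2 change of 1.68 ± 0.12 (3.2-fold, interval 1.39 to 1.97 on the log2 scale, adjusted p = 7.84e-05). Pdlim5 (ENH), of the same family, went from 95.2, 80.8 and 88.3 to 172, 167 and 148, at 0.88 ± 0.08 (1.84-fold, adjusted p = 0.00018). Csrp1, a LIM protein that binds alpha-actinin and zyxin, had 4364, 4689 and 4682 counts in control and 7613, 7615 and 7229 with fenofibrate, or 327 ± 12.6 and 539 ± 36.4 normalised CPM, at 0.72 ± 0.06 (1.65-fold, adjusted p = 9.76e-05). For all 3, every fenofibrate library lay above every control library.

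The other LIM-only genes showed no call. Csrp2 ranged from 14.8 to 18.4 normalised CPM in control and 16.1 to 19.2 with fenofibrate, at 0.09 ± 0.12 (adjusted p = 0.57). Fhl3 was at 5.33, 4.88 and 6.02 against 5.74, 4.46 and 4.86, at -0.11 ± 0.16 (adjusted p = 0.619). Fhl1 had 1 count in all. Fhl2 had 0 counts over control and 4 over fenofibrate (1, 0 and 3), too few to set a lower limit on a change. Of the remaining genes, Filip1l encodes a filamin-interacting protein, and its CArG box lies in a promoter window inside the annotated gene. Filip1l rose from 30.4, 30.9 and 29.9 to 49.5, 46.0 and 44.7, at 0.62 ± 0.06 (1.54-fold, adjusted p = 0.000322). Ankrd1, a target often used to read YAP activity, had 1 count over control and 7 over fenofibrate, a ratio of 6.78 with a counting interval of 0.871 to 305.

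Levels between genes were compared only per length, as CPM per kilobase of merged exons. In control, Actb (501.8 ± 103) and Cfl1 (286 ± 11.5) were highest, followed by Tmsb10 (197 ± 10.2), Actg1 (192 ± 74.0) and Csrp1 (170 ± 5.96). Actg1 could not be placed among these last 3, since its SD spans both neighbours. Tpm4 (157 ± 3.15) and Pfn1 (156 ± 3.75) were within their spread of each other. The regulators were far lower, with Srf at 17.8 ± 0.0931, Mylk at 7.70 ± 0.315 and Limk1 at 4.77 ± 0.0480. With fenofibrate, Dstn (159 ± 4.16) stood above Pfn1 (123 ± 9.22), which it had been below in control at 92.4 ± 4.56. These values are for whole genes and do not tell isoforms apart. The median coefficient of variation of the tested members was 4.92% in control and 7.17% with fenofibrate, against 6.91% and 7.55% for all genes tested. No strand setting is stated, so counts may include reads of overlapping genes, as of Snx32 at Cfl1, Ppt1 at Cap1, Sgsm3 at Mkl1 and Gm42928 at Cnn3.

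Proteins of a family can have overlapping functions, so each gene's share of its family's summed FPKM was taken in every library (25 shares in 10 families). Destrin's share of the cofilin and destrin sum went from 26.2% ± 1.53 to 37.1% ± 0.999, a difference of 10.9 percentage points with no overlap. Tpm4 went from 69.1% ± 2.88 to 75.2% ± 0.674 of the tropomyosins, and Tpm3 from 14.1% ± 0.772 to 9.94% ± 0.413. Cnn2 went from 58.1% ± 0.473 to 69.4% ± 3.88 of the calponins. The thymosin sum stayed mostly Tmsb10, with Tmsb4x at 6.63% ± 0.514 and 11.2% ± 2.71. Limk1 went from 34.5% ± 0.766 to 28.8% ± 2.36 of the LIM kinases. The share of Actb among the actins was 73.8% ± 6.80 and 69.8% ± 9.16, which overlap (exact two-sided permutation p = 0.6).

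With 3 libraries against 3, the exact permutation test cannot go below p = 0.1, which each share without overlap reached, with an adjusted p of 0.192 over the 25 shares. No share therefore passed a test. FPKM divides by the authors' gene length, which for Tpm1 and Myl6 was 2.55 and 2.57 times the merged exon length, so the size of a share depends on the length used. Per merged exon length, a choice made after seeing the data, Tpm4 held 50.1% in control and 57.1% with fenofibrate, and Dstn 24.4% and 35.0%.

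**Figure D5:**
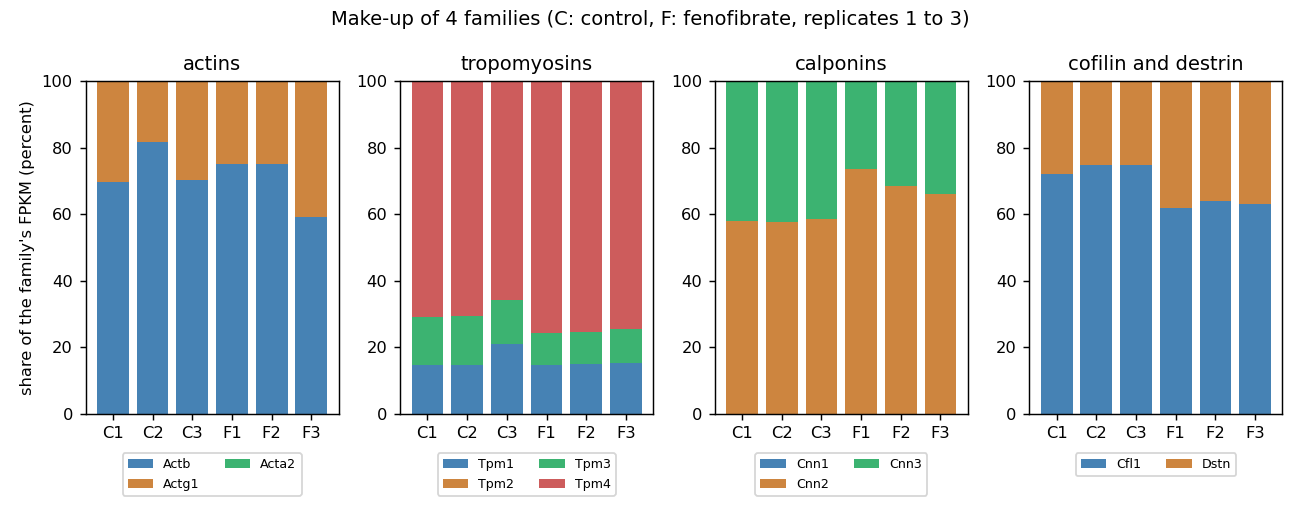
Share of each gene in its family's summed FPKM (percent, vertical axis from 0 to 100) in the 3 control (C) and 3 fenofibrate (F) libraries for actins, tropomyosins, calponins, and cofilin with destrin. Destrin rises from 26.2% to 37.1% on average and Cnn2 from 58.1% to 69.4%, while the actin shares vary as much within groups as between them.

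Other genes of the same pathways, outside the 45, were counted in the same way. Of 28 SRF-linked genes, 22 were tested, 11 rose and 3 fell, with a median log2 change of 0.34. The largest changes were those of Lmod1, a leiomodin that nucleates filaments in muscle (5.85-fold higher, adjusted p = 0.000955), Zyx, the adhesion protein zyxin (3.1-fold, 4.22e-05), Vcl, vinculin (2.4-fold, 3e-05), and Tgfb1i1, the adhesion adaptor Hic-5 (2.29-fold, 0.0442). The sizes for Lmod1 and Tgfb1i1 rest on few counts, with 18, 6 and 18 and with 8, 24 and 11 in control.

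Of 17 tested genes of branched actin nucleation, the ARP2/3 complex and its activators, 6 rose and 4 fell, with a median of 0.09. Cttn (cortactin) was 1.42-fold higher, Actr3 1.38-fold higher, Arpc1a 1.29-fold higher and Wasf1 1.38-fold lower (adjusted p = 0.000715, 0.00243, 0.00498 and 0.00205). Of 19 tested genes that cap or bundle filaments or tie them to membranes, 8 rose and 3 fell, with a median of 0.09. Lcp1, the bundling protein L-plastin, was 4.59-fold higher (adjusted p = 2.63e-05), Enah 1.47-fold higher (0.0309), Rdx (radixin) 1.27-fold higher (0.000661) and Fscn1 (fascin) 1.38-fold lower (0.00544). The shares called higher in these lists ran from 35.3% (branched nucleation) to 50% (SRF-linked genes), beside 19.5% of all genes. The shares called lower were 13.6% (SRF-linked genes), 15.8% (capping, bundling and membrane linkers) and 23.5% (branched nucleation), also beside 19.5% of all genes.

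Markers of other cell types that express many of these genes were read beside the rises. Of all genes tested, 19.5% were called higher and 19.5% lower, and of the 8 melanocyte markers, all tested, 6 were called higher and 0 lower. The summed level of 8 smooth muscle markers, mostly from Smtn, was 54.3 to 58.8 CPM in control and 71.6 to 78.4 CPM with fenofibrate. Of the 4 tested, Smtn and Lmod1 rose, and Des and Synpo2 did not pass the test. Myocd, the defining cofactor of smooth muscle, had 0 counts in every library. Myh11 had 1 count over control and 3 over fenofibrate, and Cnn1 had 0 and 1. Acta2 had 0 counts in control and 10, 1 and 10 with fenofibrate. The 8 fibroblast markers summed to 37.1 to 40.5 CPM in control and 14.3 to 16.9 with fenofibrate, with 2 of 3 tested called lower. The 9 skeletal and heart muscle markers summed to 16.9 to 24.5 and 12.4 to 17.5 CPM, with Myod1, Myog and Myh6 at 0 in every library. Of the 2 tested, Tnnt2 (cardiac troponin T) rose from 6, 6 and 5 to 37, 52 and 25 counts (adjusted p = 0.00121). All its control libraries were under the filter on low counts, so Tnnt2 was tested only through the fenofibrate libraries, where it is high. Ttn (titin) fell from 283, 322 and 205 to 150, 184 and 148 counts (adjusted p = 0.0109). The 6 endothelial markers summed to 3.24 to 3.46 and 8.49 to 11.1 CPM, nearly all from Vwf, with 4 of 6 at 0 throughout. Vwf, the only 1 of them tested, was called higher (adjusted p = 0.000177). Blood cell markers summed to 2.13 to 3.41 and 4.18 to 6.94 CPM. Cd68, the only 1 of them tested, was called higher (28, 47 and 26 against 82, 45 and 63 counts, adjusted p = 0.0489). Ptprc had 0 counts in control and 6, 10 and 8 with fenofibrate, and the other blood cell markers had few or no counts. Epithelial markers summed to 1.84 to 2.13 and 1.36 to 2.22 CPM, and Cdh1, the only 1 of them tested, was not called. The part of such cells in the members' changes was not tested.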

How the data were processed

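The table as deposited by the authors holds, for each gene, raw read counts and FPKM values (counts scaled by gene length and library total) in 6 libraries. The submitters' processing notes name HISAT2 2.0.4, StringTie 1.3.0 and GRCm39 without roles. The counting tool, strand setting and filters are not given in the sources used here. The table's gene coordinates are those of GRCm38 (98.7% of the IDs found in GENCODE M21 have the same start and end), so positions are given in GRCm38.

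Members and gene lists were chosen with earlier results of these data known. Tests used the deposited counts and edgeR 4.0.16 under R 4.3.3 (filterByExpr, TMM, glmQLFit, glmQLFTest, no covariate), over all 13629 genes tested, with calls at a Benjamini-Hochberg adjusted p of 0.05. All 45 members are named, and from each other list the 4 called genes with the largest changes; 1 further list is not reported here. For low counts, ratios have exact 95% counting intervals. A count of 0 is read as up to 3 counts. PCR copies cannot be removed without molecular identifiers, and these limits cover counting error only. Family shares were computed from the deposited FPKM. Promoters are RefSeq's. The test was tested on simulated data. Alternatives were DESeq2 1.42.0, RLE scaling, no filter, a replicate block, limma 3.58.1 on log2(FPKM + 0.5) or log2(FPKM + 0.1), and leaving out each library. Nothing beyond the labels says how separate the cultures were, so p-values measure the spread between these libraries.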

Additional observations from a re-analysis of the deposited data

How the results depend on the processing

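Across 13 alternative fits, 16 to 21 members were called higher and 3 lower, against 19 and 3. Of the 19 higher calls, 16 held in every fit, the exceptions being Actb, Capg and Diaph3, and all 3 lower calls held. The members' median log2 fold change of 0.31 was 0.37 with DESeq2, 0.41 with no filter on low counts, 0.25 and 0.26 with limma on log2(FPKM + 0.5) and log2(FPKM + 0.1), and 0.16 with limma and no filter. It ranged from 0.27 to 0.41 when 1 library was left out, the highest being without control replicate 3. The alternatives without a filter test all 45 members, and DESeq2 tested 40. In the 2 limma fits with a filter, the median of all genes tested was also lower, at -0.039 and -0.044 against -0.002. The cause of the shifts was not tested.

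Log2 changes close to 0 turned sign without a call. Mkl1 was -0.01 in the 3 limma fits and -0.03 without control replicate 3 or fenofibrate replicate 1. With 1 library left out, Cald1 ranged from -0.13 to 0.06 (0 without control replicate 3), Tmsb10 from -0.15 to 0.14, Limk2 from -0.08 to 0.02, Cdc42ep3 from -0.31 to 0.04 and Diaph1 from -0.09 to 0.02. In the same way the difference in the share of Actb ranged from -6.74 to 1.2 points and that of Tpm1 from -2.95 to 0.167 points, the latter being 0.195 points from counts. The causes were not tested.

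Whether the replicate numbers pair the libraries could not be settled. Same-number deviations correlated at -0.003 to 0.028, and 4 of 6 libraries correlated best with their own number. These correlations run over all genes tested, so they cannot exclude a pairing that touches some genes. With a replicate block, 17 members were called higher and 3 lower, with a median of 0.32. Under the block, Actb (adjusted p = 0.0692), Capg (0.0605) and Diaph3 (0.0586) were not called, and Actg1 was (0.72, adjusted p = 0.00663).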

Other observations

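The CArG box was also found in promoter windows of genes outside the cytoskeleton set. Promoter windows were found for 9287 of 11598 protein-coding genes tested (80.1%), of which 20.9% were called higher and 21.1% lower. With the members left out, 139 of these genes held a box in a window, and 49 (35.3%) were called higher and 20 (14.4%) lower, with a median log2 fold change of 0.16. Without genes that passed the filter on low counts mainly through 1 group, 45 of 132 (34.1%) were higher and 20 (15.2%) lower, beside 20.8% and 21.2% of the coding genes with a window. This is a description with no test. The largest called rises among the 132 were those of Dusp5, a phosphatase that acts on ERK (6.57-fold), Rnd3 (3.06-fold) and Rasa4 (2.98-fold). Dusp5 and Rasa4 rest on few counts, at 0.937, 0.488 and 0.798 and at 0.648, 0.976 and 0.870 normalised CPM in control. Some smaller called rises were picked after their values were seen, and not by size. These were Vcl (2.4-fold), named above, and Zfp36, an immediate early gene whose protein promotes mRNA decay (1.58-fold). Lima1, the filament-bundling protein EPLIN (1.52-fold), and Myo1e, a class I myosin (1.38-fold), were picked in the same way. The largest called falls were those of Kif20b, a mitotic kinesin (1.8-fold), Trip10, a CDC42-binding protein (1.71-fold), and Tyms, thymidylate synthase (1.64-fold).

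Several genes of the set that are common in other cultured cells were close to the limit of detection here in both groups. Tagln2 had 21 counts over control and 25 over fenofibrate, Myh10 had 4 and 1, and Tpm2 had 11 and 17. Tmsb4x stood at 12.3 ± 0.631 CPM per kilobase of merged exons in control, against 197 ± 10.2 for Tmsb10. Reads that also match other copies of a gene may have been left out by the counting, whose rule is not given in the sources used here, and this was not tested.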
